A study of Prunus avium with 6 samples.

Results

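The genes described here carry the word chloroplast or photosynthetic in the description that the study's annotation table gives to predicted coding sequences of sweet cherry (Prunus avium). Of the 581 annotated genes at hand, out of 43673 predicted genes in the data, 30 met this rule once a jasmonate enzyme, allene oxide synthase, was left out. The annotation at hand covers only part of the predicted genes, so other genes of sweet cherry may meet the rule. Reads of 24 of the 30, or 80%, were found in at least 1 library, against 51.8% of the 581 and 37.8% of all 43673. The 6 libraries came from leaves and from fruits of ‘Bing’, ‘Lapins’ and ‘Rainier’, all collected in 2012, with fruits picked at commercial maturity. ‘Bing’ was sampled in Quillota, ‘Lapins’ in Los Andes and ‘Rainier’ in San Francisco de Mostazal, so that cultivar and site cannot be told apart. No sample was treated. Each cultivar and tissue had 1 library of total RNA, read by pyrosequencing, and the sources do not say how many trees it stands for. The 3 cultivars are therefore the only replicates of a tissue. Under its filter on low counts, p-values of the tissue test draw on the spread between these libraries and on spread pooled over genes. Without that filter they rest on the pooled spread. Those between single libraries of a tissue measure counting error alone.

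Chloroplasts capture light with chlorophyll held by antenna proteins, and pass electrons through the thylakoid membrane to the Calvin cycle, which fixes carbon. They also make isoprenoids, fatty acids and several amino acids, tasks that plastids keep in tissues that do not photosynthesise. Nearly all their proteins are encoded in the nucleus and imported through translocons called TOC and TIC. Leaf is the main photosynthetic tissue, whereas the young green cherry loses its chlorophyll as it ripens.

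Unique reads, those with a single best match, summed to between 70058 and 89009 in leaf libraries and between 74371 and 116264 in fruit libraries. Values listed without a name follow the order ‘Bing’, ‘Lapins’, ‘Rainier’. Levels are given as unique reads per 10000 unique reads of the library. At this depth a count of 0 still allows up to 3 reads, between 0.258 and 0.428 per 10000. None of the 30 genes had a non-specific read in any library, so that unique and total reads were equal for them. Intervals given with ratios are exact 95% intervals and cover counting error alone. In tissue RNA, fewer cells of a type and less RNA per cell cannot be told apart.

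Together the 30 genes took 982 of 503851 unique reads. The leaf libraries held 246, 265 and 265 of these reads, or 27.6, 37.8 and 37.8 per 10000. The fruit libraries held 105, 52 and 49, or 9.03, 6.99 and 5.84 per 10000. Every leaf library lay above every fruit library, with a mean of 34.4 ± 5.86 against 7.29 ± 1.62 (here and below, mean ± SD over 3 cultivars), 4.72 times higher in leaf. Within a cultivar the leaf share was 3.06 times the fruit share in ‘Bing’, 5.41 times in ‘Lapins’ and 6.47 times in ‘Rainier’. The sum is a description, to which 1 antenna gene adds 20.6% of the leaf reads. Without that gene the means were 27.4 ± 5.34 and 7.25 ± 1.67, a ratio of 3.78.

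**Figure D1:**
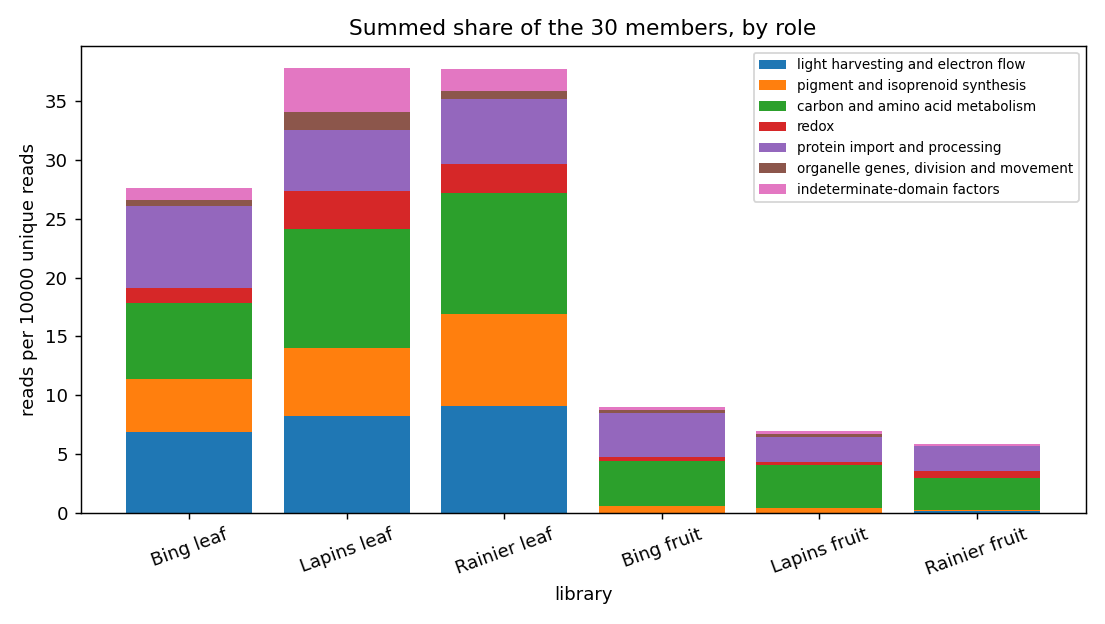
Stacked bars give the unique reads of the 30 genes per 10000 unique reads in each of the 6 libraries, coloured by role. The leaf bars stand between 27.6 and 37.8 and the fruit bars between 5.84 and 9.03, and the segment for light harvesting and electron flow is at 0 in fruits of ‘Bing’ and ‘Lapins’.

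Both genes of light harvesting and electron flow were read almost only in leaf, with 183 leaf reads and 1 fruit read between them. The antenna gene Pav_sc0000877.1_g910.1.mk encodes a chlorophyll a-b binding protein and belongs to the complexes that gather light for the photosystems. It gave 57, 48 and 55 leaf reads, whereas its fruit reads numbered 0, 0 and 1, the last in ‘Rainier’. The leaf level of 7.03 ± 0.732 per 10000 varied little between cultivars. Per kilobase of coding sequence it was the most abundant of the 581 annotated genes in leaf and ranked 206 in fruit. It fell in fruit (log2 fold change -7.20, standard error 0.74, adjusted p = 2.12e-06, edgeR's quasi-likelihood test). The size of this change hangs on the single fruit read: without ‘Rainier’ fruit, where no fruit read is left, the fitted value was -8.92, and without ‘Bing’ fruit it was -6.57.

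The subunit of the chloroplast NDH complex (Pav_sc0000877.1_g940.1.mk) belongs to a machine that returns electrons to the plastoquinone pool around photosystem I. Its leaf reads were 4, 10 and 9, and no fruit library had any. Set against a floor of 3 reads over the fruit libraries, the leaf share was 9.18-fold higher. The exact interval, which also covers counting error in the leaf reads, starts at 6.88. It had too few reads for the filter on low counts, and passed the test when that filter was left off (adjusted p = 4.10e-05, edgeR). With no filter, here and below, a gene's own spread between libraries hardly enters the p-value.

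**Figure D2:**
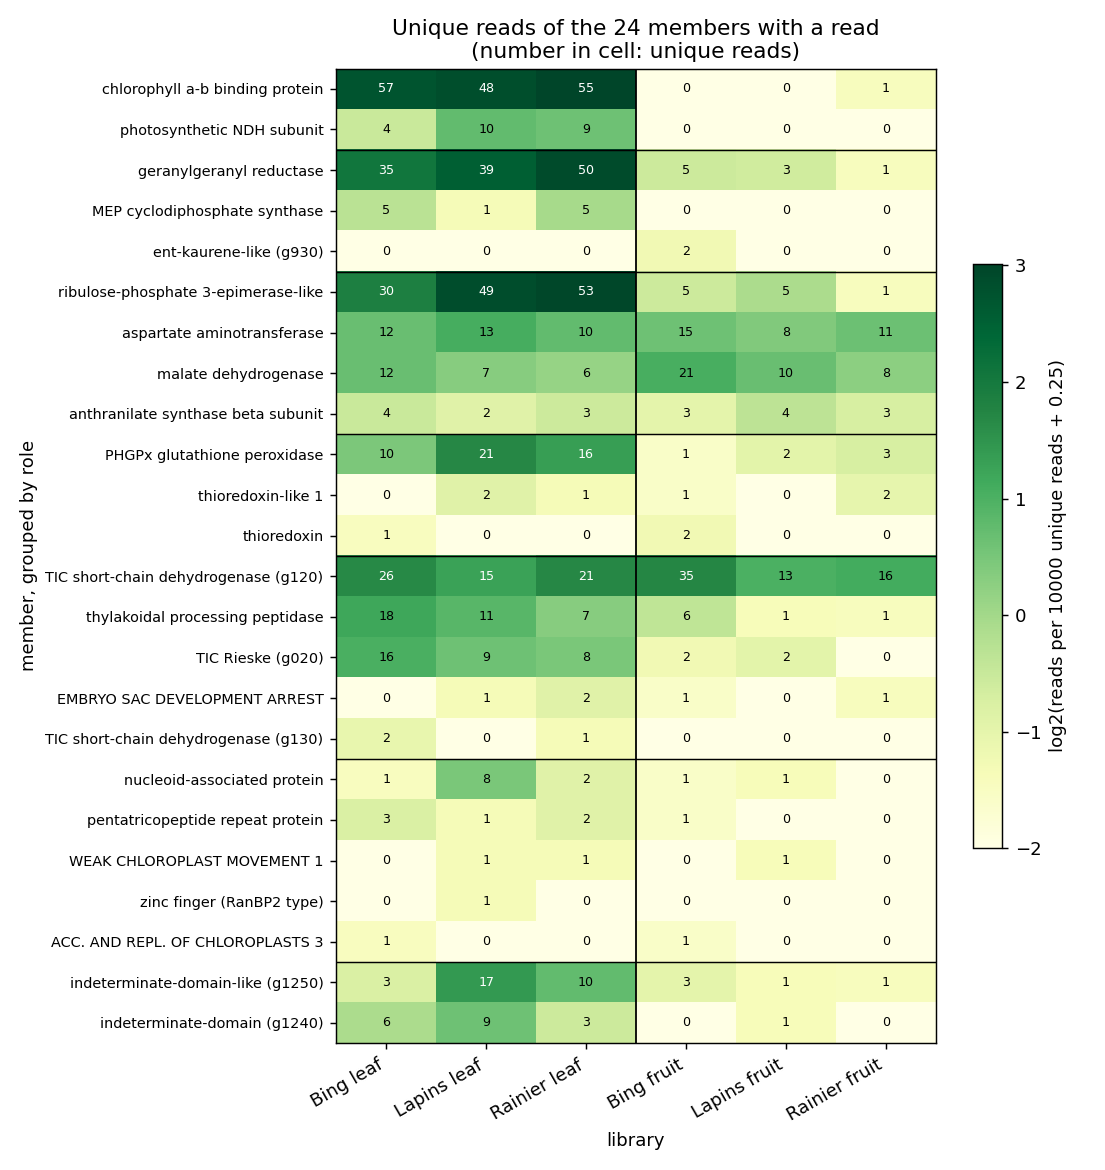
Each row is 1 of the 24 genes with a read and each column 1 library. Numbers are unique reads and colour is log2(reads per 10000 unique reads + 0.25), with horizontal lines between roles. The antenna, geranylgeranyl and ribulose-phosphate rows are dark in leaf and pale in fruit, whereas malate dehydrogenase, aspartate aminotransferase and the short-chain dehydrogenase g120 have at least 6 reads in each of the 6 columns.

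Among the 6 genes of pigment and isoprenoid synthesis, 1 fell in fruit, 1 more did so with no filter on low counts, 1 was read in fruit alone and 3 had no read. Of all genes tested, 26.3% were lower in fruit with the filter and 7.56% without it. The gene described as geranylgeranyl diphosphate, chloroplastic (Pav_sc0000877.1_g840.1.mk) has the domain of geranylgeranyl reductase, which makes the phytyl tail of chlorophyll. Its leaf reads were 35, 39 and 50, against 5, 3 and 1 in the fruits. All leaf libraries lay above all fruit libraries, by 16.5 times over the pooled reads (8.42 to 36.9). The decrease passed the test (log2 fold change -4.15, standard error 0.57, adjusted p = 2.18e-05, edgeR).

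The cyclodiphosphate synthase of the methylerythritol phosphate pathway (Pav_sc0000886.1_g700.1.mk) supplies precursors of chlorophyll, carotenoids and gibberellins. It had 5, 1 and 5 leaf reads and none in fruit. Set against 3 fruit reads, its leaf share was 4.39-fold higher, with an exact interval that starts at 3.01. With no filter it passed (adjusted p = 0.0119, edgeR). Both beta-carotene hydroxylase genes, of xanthophyll synthesis, had no read in any library. Of 2 genes described as ent-kaurene, chloroplastic-like, with a cytochrome P450 domain, 1 had no read and Pav_sc0000890.1_g930.1.mk had 2 reads, both in ‘Bing’ fruit.

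The 4 genes of carbon and amino acid metabolism did not move as a block. The ribulose-phosphate gene fell in fruit, as did 26.3% of all genes tested under the filter. None of the other 3 was called, and the anthranilate synthase subunit had too few reads for the filter. The ribulose-phosphate gene (Pav_sc0000877.1_g1130.1.mk) has an epimerase-like domain. Such epimerases interconvert pentose phosphates while the carbon acceptor of the Calvin cycle is regenerated. Whether the ribulose-phosphate gene acts in that cycle was not tested. It had 30, 49 and 53 leaf reads and 5, 5 and 1 fruit reads. The tissues did not overlap, and the leaf share was 7.84 times the fruit share in ‘Bing’ and 63.4 times in ‘Rainier’, where the fruit value is 1 read. Over the cultivars it fell by 3.97 on the log2 scale (standard error 0.59, adjusted p = 4.36e-05, edgeR).

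The gene described as malate, chloroplastic (Pav_sc0000877.1_g830.1.mk) is named malate dehydrogenase here, an enzyme that interconverts malate and oxaloacetate. It had 12, 7 and 6 leaf reads and 21, 10 and 8 fruit reads. Its level was 1.07 ± 0.254 per 10000 in leaf and 1.37 ± 0.427 in fruit, and the tissues overlapped. The fitted log2 fold change was 0.24 (standard error 0.47, adjusted p = 0.705, edgeR), with a pooled leaf to fruit ratio of 0.768 (0.445 to 1.3).
The gene described as aspartate, chloroplastic (Pav_sc0000890.1_g730.1.mk) is named aspartate aminotransferase here, an enzyme that links amino acids to the tricarboxylic acid cycle. It had 12, 13 and 10 leaf reads and 15, 8 and 11 fruit reads. Each leaf value was above each fruit value by a narrow margin, 1.54 ± 0.274 against 1.23 ± 0.130 per 10000, and the difference did not pass (log2 fold change -0.43, standard error 0.44, adjusted p = 0.454, edgeR). The anthranilate synthase beta subunit (Pav_sc0000893.1_g800.1.mk), of tryptophan synthesis, had 9 leaf and 10 fruit reads, and was not tested at this depth under the filter. Its leaf to fruit ratio of 1.08 has an interval of 0.388 to 2.95, so that a difference within that range was not detectable.

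In protein import and processing, the most read gene was not called between the tissues. A short-chain dehydrogenase described as TIC (Pav_sc0000886.1_g120.1.mk), a name given to parts of the translocon of the inner envelope, had 26, 15 and 21 leaf reads. Its fruit reads were 35, 13 and 16, so that leaf and fruit values overlapped. The levels were 2.68 ± 0.472 per 10000 in leaf and 2.22 ± 0.688 in fruit (log2 fold change -0.37, standard error 0.45, adjusted p = 0.525, edgeR), with a pooled ratio of 1.16 (0.805 to 1.67). This gene alone gave 31.1% of the fruit reads of the 30 genes and 7.99% of their leaf reads.

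A pair of other genes of this role were read mainly in leaf. The Rieske-type protein described as TIC (Pav_sc0000890.1_g020.1.mk) had 16, 9 and 8 leaf reads and 2, 2 and 0 fruit reads, a ratio of 9.88 (3.51 to 38.4). The thylakoidal processing peptidase (Pav_sc0000890.1_g880.1.mk), which trims proteins after their passage into the thylakoid, had 18, 11 and 7 leaf reads and 6, 1 and 1 fruit reads, a ratio of 5.39 (2.46 to 13.4). Neither reached the filter. With no filter both were lower in fruit, as were 7.56% of all genes tested. The adjusted p was 9.45e-04 for the Rieske-type protein and 0.00557 for the peptidase (edgeR). Like all p-values with no filter, these hardly draw on a gene's own spread between libraries. EMBRYO SAC DEVELOPMENT ARREST, with the cysteine-rich domain of DnaJ chaperones, had 3 leaf reads and 2 fruit reads.

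Redox genes were few and unequal. The phospholipid hydroperoxide glutathione peroxidase (Pav_sc0000890.1_g240.1.mk), which reduces lipid peroxides, had 10, 21 and 16 leaf reads and 1, 2 and 3 fruit reads. No fruit library reached a leaf library, and the ratio was 9.38 (4.0 to 26.9). It was lower in fruit with no filter on low counts (adjusted p = 1.10e-04, edgeR), as were 7.56% of all genes tested. The 2 thioredoxin genes, of disulphide exchange, had 6 and 3 reads over all libraries, spread over both tissues.

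Genes for the organelle's own DNA and RNA, its division and its movement were close to the detection limit. The nucleoid-associated gene (Pav_sc0000890.1_g330.1.mk), of a family of small DNA-binding proteins in bacteria, had 8 of its 13 reads in ‘Lapins’ leaf. It had 11 reads in leaf and 2 in fruit, and did not pass even with no filter (adjusted p = 0.134, edgeR). The pentatricopeptide repeat gene, of a family that binds organelle transcripts, had 3, 1 and 2 reads in the leaves and 1, 0 and 0 in the fruits. ACCUMULATION AND REPLICATION OF CHLOROPLASTS 3, of plastid division in Arabidopsis, had 2 reads. WEAK CHLOROPLAST MOVEMENT UNDER BLUE LIGHT 1, named for the chloroplast photorelocation defect of its Arabidopsis mutant, had 3. The RanBP2-type zinc finger gene had 1, and the ankyrin repeat gene none.

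The pair of indeterminate-domain genes are zinc finger proteins, a family known as nuclear transcription factors, whose place in this set rests on the word chloroplastic in their description. Both were read mainly in leaf. Pav_sc0000893.1_g1240.1.mk had 6, 9 and 3 leaf reads and 0, 1 and 0 fruit reads. Its neighbour Pav_sc0000893.1_g1250.1.mk had 3, 17 and 10 leaf reads and 3, 1 and 1 fruit reads. In neither did the tissues overlap, though 3 reads in ‘Bing’ leaf stood against 3 in the deeper ‘Bing’ fruit library. With no filter both were lower in fruit, at adjusted p = 0.00457 and 0.00298 (edgeR), as were 7.56% of all genes tested. Each leaf library exceeded each fruit library for 13.2% of all genes with a read.

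**Figure D3:**
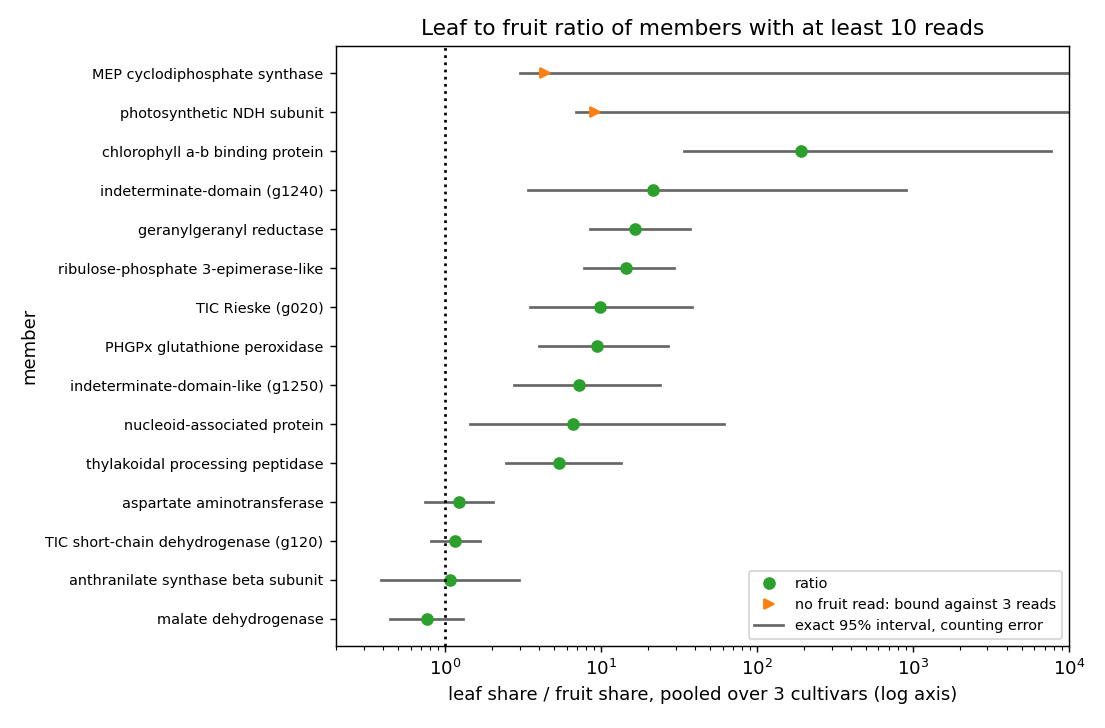
Points give the leaf share divided by the fruit share, pooled over the cultivars, on a log axis, for the genes with at least 10 reads. Lines are exact 95% intervals for counting error alone, and triangles are ratios against 3 reads for genes with no fruit read. The antenna gene lies farthest right among those with a ratio, and 4 genes have an interval that includes 1.

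Over the whole set, 6 genes had enough reads for edgeR to test under its filter, and 3 were called lower in fruit, the antenna, geranylgeranyl and ribulose-phosphate genes. Of the 1864 genes tested in all, 26.3% were lower and 19.4% higher. A gene read in leaf alone passes such a filter through its leaf reads, so that this count is no support in itself. None of the 6 was called higher, none was higher at an unadjusted p under 0.05, and DESeq2 called 3 lower and 0 higher. With no filter, all 24 genes with a read were tested, 10 were lower and 0 higher, against 7.56% lower and 4.29% higher of 16519 genes. The median log2 fold change of the 24 was -2.49, beside -0.17 over all genes. It was -1.58 with genes unread in fruit set at their ratio against 3 reads, or at 0 where that would put leaf below fruit. The gene unread in leaf was set at 0 there. At least 20 reads in all were held by 11 of the 24 and by 5346 of the 16519. Neither these shares nor the medians therefore compare genes of like depth. Each leaf library exceeded each fruit library for 12 of the 24 genes, against 13.2% of all genes with a read, and the reverse held for 0, against 10.2%. Among genes with at least 20 reads in all, every leaf exceeded every fruit for 9 of 11, against 21.9%, and the reverse held for 0, against 22.1%. Most of these 11 also reach the minimum through their leaf reads, so that neither count of separated tissues is support.

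Which genes led the set differed between tissues. In leaf the 4 most read genes, which were the antenna, ribulose-phosphate, geranylgeranyl and g120 short-chain dehydrogenase genes, gave 61.6% of the reads. In fruit the leading 4 were the g120 gene, malate dehydrogenase with 18.9%, aspartate aminotransferase with 16.5% and the ribulose-phosphate gene with 5.34%, and they gave 71.8%. Per kilobase, the leaf level in reads per 10000 was 9.15 ± 0.953 for the antenna gene, 7.01 ± 2.66 for the ribulose-phosphate gene and 3.95 ± 1.14 for the geranylgeranyl gene. Below them came the glutathione peroxidase at 2.90 ± 1.29 and the g120 gene at 2.83 ± 0.498, and in this order neighbours differed by less than the larger of their SDs, except for the ribulose-phosphate and geranylgeranyl genes. In fruit the g120 gene led at 2.34 ± 0.726 per kilobase, above malate dehydrogenase at 1.05 ± 0.328, and the ribulose-phosphate gene followed at 0.478 ± 0.325. The g120 gene ranked 9 in leaf and 8 in fruit among the 581 annotated genes.

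Several of the 30 genes lie next to each other and share a description. By their identifiers they fall on 4 scaffolds, sc0000877, sc0000886, sc0000890 and sc0000893, in groups of 7, 6, 11 and 6. These scaffolds supply 112, 84, 141 and 128 of the 581 annotated genes at hand. The set makes up 6.25%, 7.14%, 7.80% and 4.69% of them, and clustering in the genome was not tested. All 7 genes of scaffold sc0000877 had reads, and the 3 called lower under the filter are among them, whereas 3 of the 6 on sc0000886 had none. Of the short-chain dehydrogenase genes described as TIC, g120 had 126 reads, g130 had 3, all in leaf, and g150 none. The Rieske-type pair likewise had 37 reads in g020 and none in g010. No read of these genes was non-specific, and their sequences were not compared.

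Between cultivars, each pair of libraries of 1 tissue was compared with the Z-test on proportions, with 3 criteria: 10 or more reads in 1 of the libraries, a ratio of 2 or more and p no higher than 0.05. It compares 2 libraries, not 2 cultivars, and has no replicate check. In leaf, 4 of the 11 genes with enough reads were called between ‘Bing’ and ‘Lapins’, and 2 of 10 between ‘Bing’ and ‘Rainier’. Of all genes with enough reads, 23.4% were called in each of these comparisons. The 6 calls were of 4 genes, 2 of them called in both comparisons, and all were lower in ‘Bing’, a direction that held for 10.8% and 9.98% of all genes. Both comparisons rest on the same ‘Bing’ leaf library, so that their shared direction is no independent evidence. Between ‘Lapins’ and ‘Rainier’ leaf none of 9 was called, against 21.1% of all genes in either direction.

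The ribulose-phosphate gene was called in both comparisons with ‘Bing’ leaf. Its share was 2.08 times higher in ‘Lapins’ (1.29 to 3.39, p = 0.00143 by Fisher's exact test, two-sided) and 2.24 times higher in ‘Rainier’ (1.41 to 3.63, p = 3.51e-04, Fisher). The indeterminate-domain gene g1250 was also called in both, at 7.20 times (2.08 to 38.3, p = 3.53e-04, Fisher) and 4.23 times (1.09 to 23.9, p = 0.0231, Fisher). The glutathione peroxidase was called against ‘Lapins’ alone, at 2.67 times (1.2 to 6.35, p = 0.0103, Fisher). For the NDH subunit, with 10 reads against 4, the ratio of 3.18 has an exact interval of 0.916 to 13.9, which includes 1, and Fisher's exact test did not call it (p = 0.0566). With p adjusted over genes with a read, g1250 passed against ‘Lapins’ (adjusted p = 0.0223) and the ribulose-phosphate gene against ‘Rainier’ (adjusted p = 0.0317), and the other calls did not.

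**Figure D4:**
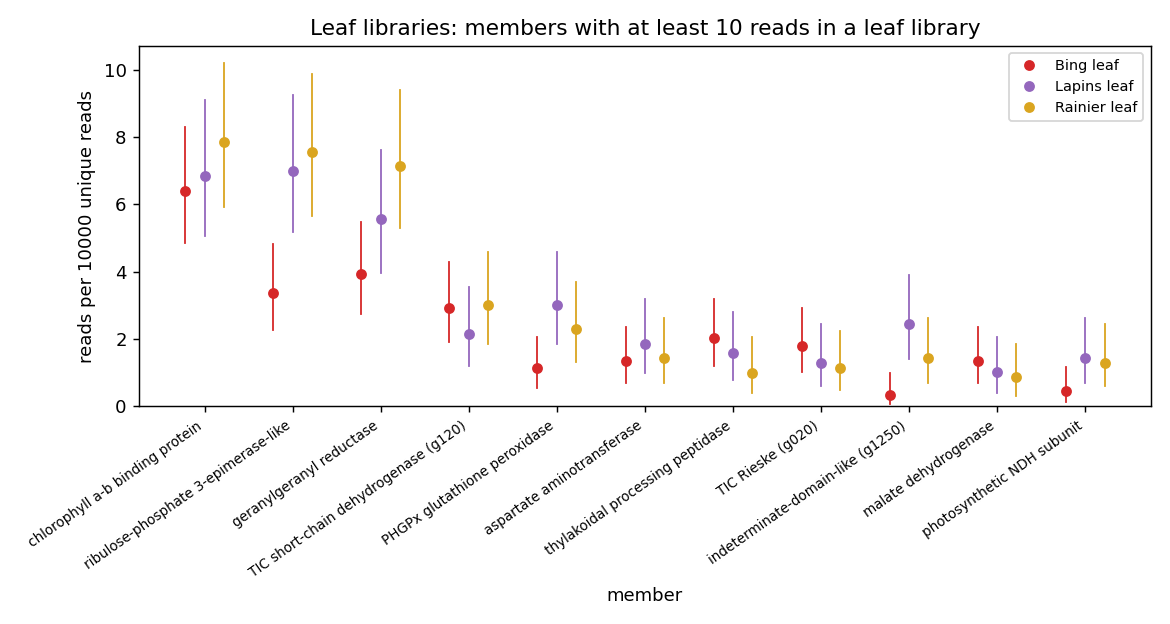
Points are unique reads per 10000 unique reads in the leaf libraries of ‘Bing’ (red), ‘Lapins’ (purple) and ‘Rainier’ (yellow) for the 11 genes with at least 10 reads in a leaf library. Lines are exact 95% intervals for counting error alone. The red point of the ribulose-phosphate gene, at 3.37, lies below the intervals of the other two cultivars, whereas the intervals of the antenna gene overlap.

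The antenna gene and the geranylgeranyl gene did not meet the criteria. The antenna gene was 1.07 times higher in ‘Lapins’ leaf than in ‘Bing’ leaf (0.713 to 1.60) and 1.22 times higher in ‘Rainier’ leaf (0.829 to 1.80). The geranylgeranyl gene was 1.81 times higher in ‘Rainier’ leaf than in ‘Bing’ leaf (1.15 to 2.87, p = 0.00834, Fisher), under the required ratio. The thylakoidal processing peptidase was 2.03 times higher in ‘Bing’ leaf than in ‘Rainier’ leaf (0.808 to 5.74, p = 0.112, Fisher), which was not called.

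In fruit only malate dehydrogenase, aspartate aminotransferase and the g120 gene reached 10 reads. None was called in any of the 3 pairs. Of all genes, 35.6% were called between ‘Bing’ and ‘Lapins’, 33% between ‘Bing’ and ‘Rainier’ and 15.9% between ‘Rainier’ and ‘Lapins’. The largest of these ratios was 1.90, for malate dehydrogenase in ‘Bing’ over ‘Rainier’ (0.807 to 4.95, p = 0.134, Fisher). A test of cultivar over both tissues with edgeR called none of the 6 genes tested, nor of 24 with no filter, and none had an unadjusted p under 0.05. DESeq2 called 0. Of all genes, edgeR called 0.215% with the filter and 0.0848% without it.

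A further 5 annotated genes were counted apart, the left-out allene oxide synthase and 4 that only their gene ontology terms tie to the plastid, and all 5 had reads. Of these, 1 passed the filter, and none was called in either direction, with or without it (edgeR). Allene oxide synthase had 38, 11 and 21 leaf reads and 17, 21 and 8 fruit reads (log2 fold change -0.91, standard error 0.51, adjusted p = 0.158). NUP155, a nuclear pore protein, had 2 leaf reads and 11 fruit reads. Each of its fruit libraries lay above each leaf library, with a pooled leaf to fruit ratio of 0.218 (0.0235 to 0.998). Cyclic dof factor 3 had 4 leaf and 8 fruit reads, and the disease resistance gene TAO1-like had 2 and 0. The entry named chaperone 1 had 1 and 4, with all fruit reads in ‘Bing’, where 11 further reads were non-specific.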

How the data were processed

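Leaf and fruit RNA of 3 cultivars was measured in 6 libraries. The authors trimmed the reads and mapped them to predicted coding sequences with CLC Genome Workbench, and deposited 2 raw counts per gene, unique and total reads. The deposited TPM and RPKM were not used. Descriptions and coding lengths came from 581 rows of the study's annotation table. No reference identifier matched a gene, so no sequence or coordinate is given.

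The tissue contrast used the quasi-likelihood test of edgeR 4.0.16 (R 4.3.3), with TMM scaling and the low-count filter filterByExpr, and cultivars as replicates. A gene was called at a Benjamini-Hochberg adjusted p under 0.05 over all genes tested. Standard errors are the log2 fold change over the root of the F statistic. With no filter on low counts, p matched a normal test of the log2 fold change over its standard error. A gene's own spread between libraries therefore hardly entered there. Cultivars were compared with the Z-test of Kal et al. on each pair of libraries, with Fisher's exact p beside it, and with edgeR (tissue and cultivar terms). Intervals used scipy 1.17.1. DESeq2 1.42.0 and the other alternatives are given at the end. Both tests were tried on simulated data. Genes and lists were chosen with earlier results of these data known. Every gene of the set with a read is named.

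Leaf and fruit of a cultivar share cultivar and site, which pairs them. Correlations of their deviations from tissue means were 0.145 (‘Bing’), -0.041 (‘Lapins’) and 0.0877 (‘Rainier’), within the -0.245 to 0.233 of unlike cultivars.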

Additional observations from a re-analysis of the deposited data

How the results depend on the processing

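The 3 genes called lower in fruit kept that call under every alternative run. The number called lower was 10 with no filter on low counts, which tests 24 genes in place of 6, and 3 to 8 when 1 library was left out, where 6 to 11 genes were tested. It was 5 without ‘Bing’ leaf or ‘Rainier’ leaf, 6 without ‘Bing’ fruit or ‘Rainier’ fruit, and 8 without ‘Lapins’ fruit, where between 20.5% and 30.5% of all genes tested were lower. With no filter that share was 7.56%. The replicate block by cultivar gave 3 lower and 0 higher and changed no other call. None was higher under any alternative. The fitted change of malate dehydrogenase, not called, turned to -0.0026 without ‘Rainier’ leaf and -0.029 without ‘Bing’ fruit, in a range of -0.029 to 0.50 when 1 library was left out. Upper-quartile scaling moved the median log2 fold change of all tested genes from -0.0042 to 0.099. Between ‘Bing’ and ‘Lapins’ leaf, 2 of 7 genes were called with 10 reads needed in both libraries and 1 of 11 with adjusted p, against 13.6% and 6.15% of all genes. Between ‘Bing’ and ‘Rainier’ leaf the same settings gave 1 of 6 and 1 of 10, against 13.9% and 5.26%, through the criteria themselves. With no minimum of reads, 5 of 23 were called against ‘Lapins’ and 2 of 22 against ‘Rainier’, beside 7.89% and 7.62% of all genes. TMM library sizes and total reads each left the calls at 4 of 11 and 2 of 10, beside 22.8% to 24.1% of all genes. The other pairs of libraries had no call under any setting. The summed leaf to fruit ratio lay between 4.29 and 5.36 when 1 library was left out. Depth limits most of the 30 genes: 15 had fewer than 10 reads over all libraries, and 6 had none.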
